A study of Rattus norvegicus with 24 samples.

Results

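The genes described here are 8 genes of the extracellular matrix, Nid1, Col4a1, Col4a5, Fbln2, Dcn, Lum, Mgp and Fn1, followed in the CA1 field of the aging rat hippocampus. They were chosen by name, with measured values of aged and young rats in view, from 14218 genes that had a probe set with a single gene symbol. They were read by 10 probe sets of 20832 such probe sets. All 8 genes passed the filter for dim signal, which asked for log2 values above 4 on 6 arrays or more, and the brightest probe set of each was over 4 in all 23 arrays. The filter left 9076 genes for testing. Because the members were selected on their aged and young values, those values are a description with no test. Tests are given for the comparison of the aged groups with each other, for covariation within groups and for matrix genes outside the 8.

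Total RNA from CA1 of male Long-Evans rats was hybridized to Affymetrix rat expression arrays, 1 array per animal by the labels. Aged Impaired rats (8 arrays) and Aged Unimpaired rats (6 arrays) were 24 to 26 months old, and Young rats (9 arrays) were 6 months old. The aged rats were divided by a learning index from the Morris water maze, a test of memory for the location of a submerged escape platform, so the aged groups differ in measured behaviour and not in a treatment. No group carried a transgene or received an agent. The labels give no batch or date, and the dissected tissue holds vessels and every other cell type of the field. Array medians lay between 4.2 and 4.28 on the log2 scale. The 6 CA1 pyramidal markers on the array were all above the limit, among them Neurod6, a neuronal transcription factor, at 12.26 ± 0.13 in aged and 12.36 ± 0.10 in Young arrays (SD, n = 14 and 9).

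Basement membranes are thin sheets in which a laminin network and a type IV collagen network are held together by nidogen and heparan sulfate proteoglycans. In the brain they lie around the endothelium and pericytes of vessels, beneath the endfeet of astrocytes and under the meninges. Nid1 encodes nidogen-1. Col4a1 and Col4a5 encode chains of type IV collagen. Fbln2 encodes fibulin-2, a glycoprotein that binds basement membrane and elastic fibre components. Dcn and Lum encode decorin and lumican, small leucine-rich proteoglycans that bind fibrillar collagen and are made mainly by fibroblasts. Mgp encodes matrix Gla protein, an inhibitor of calcification made by vascular cells, and Fn1 encodes fibronectin, a glycoprotein of plasma and matrix that is bound by integrins.

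Promoter windows from 250 bases before to 50 bases after the gene start were on hand for 5 of the 8 genes in a RefSeq table of the rat build GRCr8: Nid1, Col4a1, Col4a5, Fbln2 and Lum. The windows of the 3 basement membrane genes are shown because Nid1 varied together with Col4a5 and with Col4a1, read by its brightest probe set, as given further on. They are Nid1 at chr17:93069036-93069335, Col4a1 at chr16:84885347-84885646 and Col4a5 at chrX:109907109-109907408, all on the plus strand and written 5′ to 3′. Capitals mark matches to the GC box GGGCGG and the CCAAT box CCAAT on either strand.
Nid1: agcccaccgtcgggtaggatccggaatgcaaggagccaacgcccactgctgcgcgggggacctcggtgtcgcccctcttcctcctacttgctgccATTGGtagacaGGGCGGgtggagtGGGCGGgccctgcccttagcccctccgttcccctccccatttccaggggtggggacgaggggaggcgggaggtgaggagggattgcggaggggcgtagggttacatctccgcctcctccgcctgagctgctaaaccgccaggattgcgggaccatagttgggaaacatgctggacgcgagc
Col4a1: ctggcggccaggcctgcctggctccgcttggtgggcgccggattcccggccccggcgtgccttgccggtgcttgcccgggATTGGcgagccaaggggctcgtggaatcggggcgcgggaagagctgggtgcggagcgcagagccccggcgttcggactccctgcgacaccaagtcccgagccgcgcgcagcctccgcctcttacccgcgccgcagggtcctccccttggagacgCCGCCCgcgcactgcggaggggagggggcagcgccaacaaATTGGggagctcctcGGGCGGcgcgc
Col4a5: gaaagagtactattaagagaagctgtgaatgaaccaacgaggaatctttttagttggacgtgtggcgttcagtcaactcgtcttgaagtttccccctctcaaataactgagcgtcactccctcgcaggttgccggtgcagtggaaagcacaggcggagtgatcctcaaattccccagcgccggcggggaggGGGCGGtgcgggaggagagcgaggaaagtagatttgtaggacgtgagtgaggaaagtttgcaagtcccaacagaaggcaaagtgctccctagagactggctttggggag
The Nid1 window held 2 GC boxes and 1 CCAAT box, the Col4a1 window 2 of each, and the Col4a5 window 1 GC box and no CCAAT box. The Fbln2 window held 3 GC boxes and the Lum window 1 CCAAT box. Of all 33469 promoter windows in the table, 33.1% held a GC box and 37.5% a CCAAT box. The TATA box TATAAA, found in 14.2% of all windows, and the AP-1 site TGANTCA, found in 7.33%, were in none of the 5. The G and C content was 66.3% for Nid1, 75.0% for Col4a1 and 53.3% for Col4a5, against a median of 51.7% over all windows. Col4a1 and Col4a2 start 77 bases apart and run in opposite directions, so that 176 of the 300 bases of the Col4a1 window are also in the window of Col4a2. A letter match is a description and not a measured binding site.

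Of the members, 7 had lower mean signal in aged than in Young arrays and Fn1 was higher, with log2 differences from -0.93 for Nid1 to 0.39 for Fn1. The members' median was -0.56, against 0.01 over all 9076 genes. In the limma fit over all genes, 5 of the 8 had an adjusted p under 0.05 and were lower, beside 3.71% of all genes called in either direction and 0.628% called lower. In the other comparisons with Young, 4 were called lower for Aged Impaired rats, beside 3.8% called in all and 0.716% called lower. For Aged Unimpaired rats 2 were called lower, beside 0.76% called in all and 0.143% called lower. These counts come from the contrast on which the genes were selected, so nothing is read from them. Both comparisons use the same 9 Young arrays. In whole tissue, fewer cells of a type and less RNA per cell cannot be told apart.

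**Figure D1:**
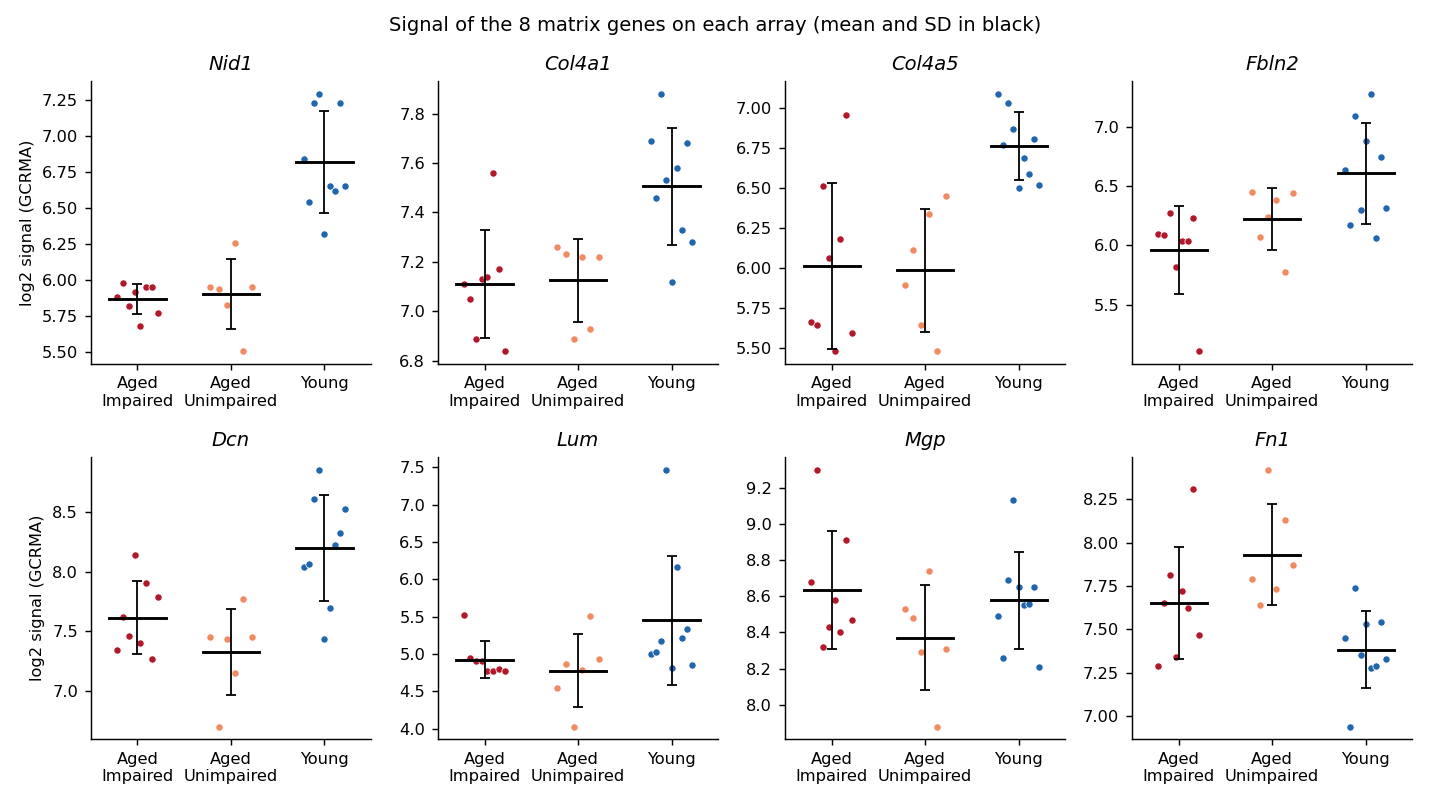
Log2 signal of the brightest probe set of each gene on every array (points), for Aged Impaired (n = 8), Aged Unimpaired (n = 6) and Young (n = 9) rats, with the mean and SD in black. All 14 aged arrays lie below all 9 Young arrays for Nid1, while the groups overlap for Mgp.

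Nid1 was read by the probe set 1371518_at. In Aged Impaired arrays it ran from 5.68 through a median of 5.90 to 5.98 (log2 signal), in Aged Unimpaired arrays from 5.51 through 5.94 to 6.26, and in Young arrays from 6.32 through 6.65 to 7.29. The lowest Young array was above the highest aged array, by 0.06. The means were 5.87 ± 0.10, 5.91 ± 0.24 and 6.82 ± 0.35 (SD, n = 8, 6 and 9, in the same order), and the aged arrays were lower by a log2 difference of -0.93 ± 0.10 (SE), or 1.91-fold. Nid1 was the 1 gene of the 9076 whose aged arrays were all below all Young arrays, a share of 0.011%. The second Nid1 probe set, 1371032_at, stayed between 2.68 and 2.74 on every array, under the limit for dim signal, and differed by -0.01 ± 0.01. It gave no reading of the gene.

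Col4a5 was read by 1374705_at. It ran from 5.49 through 5.86 to 6.96 in Aged Impaired arrays, from 5.48 through 6.00 to 6.45 in Aged Unimpaired arrays and from 6.50 through 6.77 to 7.09 in Young arrays. All 6 Aged Unimpaired arrays and 6 of 8 Aged Impaired arrays were below every Young array. The aged arrays were lower by -0.76 ± 0.15 (SE), or 1.70-fold. The Aged Impaired difference was -0.75 ± 0.18 and the Aged Unimpaired difference -0.78 ± 0.19. Nid1 and Col4a5 were the 2 of 8 members whose Aged Unimpaired arrays all lay below Young, beside 0.11% of all genes. Nid1 was the 1 of 8 for Aged Impaired arrays, beside 0.0441%.

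Col4a1 had 2 bright probe sets, and they disagreed. The brighter one, 1372439_at, ran from 6.84 through 7.12 to 7.56 in Aged Impaired arrays, from 6.89 through 7.22 to 7.26 in Aged Unimpaired arrays and from 7.12 through 7.53 to 7.88 in Young arrays. The Aged Impaired arrays were lower than Young by -0.39 ± 0.10 and the Aged Unimpaired arrays by -0.38 ± 0.11 (SE), and each overlapped Young. The other, 1373245_at, ran from 6.24 through 6.41 to 6.63 in Aged Impaired arrays, from 5.33 through 6.10 to 6.31 in Aged Unimpaired arrays and from 5.92 through 6.49 to 7.04 in Young arrays. On this probe set the Aged Impaired arrays differed from Young by 0.01 ± 0.14, and the Aged Unimpaired arrays by -0.42 ± 0.15. With the mean of both probe sets the Aged Impaired difference was -0.19.

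Col4a2 encodes the chain that assembles with the Col4a1 product, and it was outside the selected genes. It averaged 8.11 ± 0.33 in Aged Impaired, 8.17 ± 0.13 in Aged Unimpaired and 8.27 ± 0.23 in Young arrays (mean ± SD, n = 8, 6 and 9). Its aged arrays differed from Young by -0.14 ± 0.10 (SE), with an adjusted p of 0.59 in limma. The deviations of the brighter Col4a1 probe set from its group means followed those of Col4a2 with r = 0.699 (rho = 0.678) over 23 arrays, with permutation p adjusted over 3 relations of 0.00156 and 0.00063. For the other Col4a1 probe set the r with Col4a2 was 0.342 (rho = 0.257), with adjusted permutation p of 0.0603 and 0.212. The 2 Col4a1 probe sets followed each other with r = 0.587 (rho = 0.553), with adjusted permutation p of 0.00513 and 0.0156. Without the 2 arrays farthest from the median these r were 0.626, 0.374 and 0.679. These 3 relations were chosen after the values were seen.

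**Figure D2:**
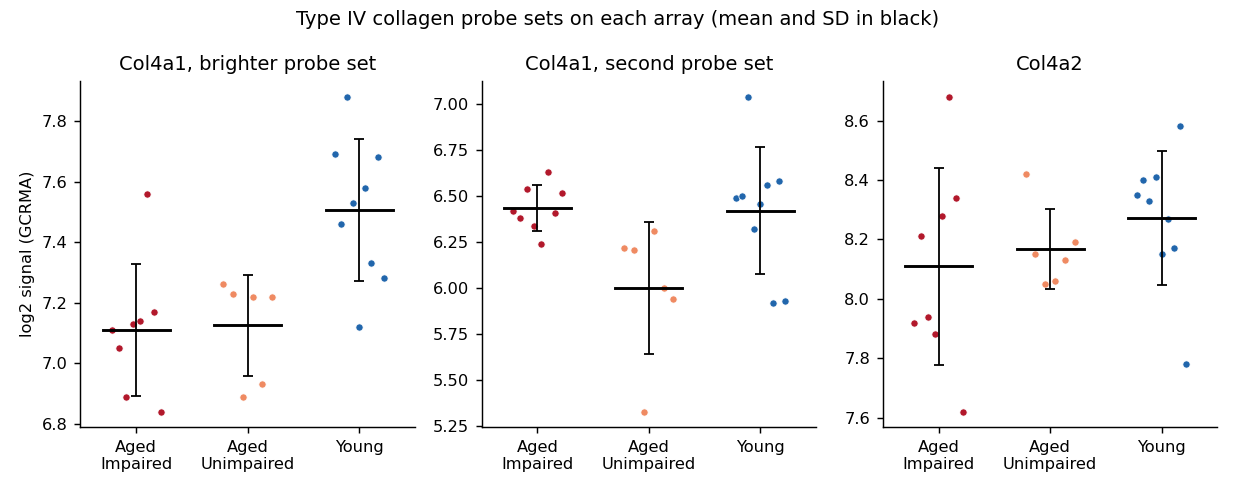
Log2 signal on each array of the brighter Col4a1 probe set, the second Col4a1 probe set and Col4a2, by group, with the mean and SD in black. In the second Col4a1 probe set the Aged Unimpaired mean (6.00) is the lowest and the Aged Impaired (6.44) and Young (6.42) means are close, unlike in the brighter one.

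Fbln2 was read by 1389533_at. It ran from 5.11 through 6.07 to 6.27 in Aged Impaired arrays, from 5.78 through 6.31 to 6.45 in Aged Unimpaired arrays and from 6.06 through 6.64 to 7.28 in Young arrays. All 14 aged arrays were below the Young median, and 5 of them were below every Young array. The aged difference was -0.53 ± 0.15 (SE), or 1.45-fold lower. It was -0.65 ± 0.17 for Aged Impaired and -0.38 ± 0.18 for Aged Unimpaired arrays.

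The proteoglycan genes Dcn and Lum are neighbours on chromosome 7. Dcn, read by 1370956_at, ran from 7.27 through 7.54 to 8.14 in Aged Impaired arrays, from 6.70 through 7.45 to 7.77 in Aged Unimpaired arrays and from 7.44 through 8.23 to 8.86 in Young arrays. All 14 aged arrays were below the Young median, and the aged difference was -0.71 ± 0.15 (SE), or 1.64-fold lower. Lum, read by 1367749_at, ran from 4.77 through 4.85 to 5.52 in Aged Impaired arrays, from 4.03 through 4.83 to 5.51 in Aged Unimpaired arrays and from 4.81 through 5.18 to 7.47 in Young arrays. Its aged difference was -0.59 ± 0.24, of which 1 array carried much: without Young replicate 4 it was -0.33, with -0.27 for Aged Impaired and -0.42 for Aged Unimpaired arrays. Young replicate 6 was next highest at 6.17, and the rest of the Young arrays lay between 4.81 and 5.33. The Lum means of 4.93, 4.78 and 5.45 (Aged Impaired, Aged Unimpaired and Young) were not far above the limit of 4 for dim signal. The groups overlapped for both genes.

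Mgp, read by 1367568_a_at, showed the smallest aged difference of the 8. It ran from 8.32 through 8.53 to 9.30 in Aged Impaired arrays, from 7.88 through 8.40 to 8.74 in Aged Unimpaired arrays and from 8.21 through 8.56 to 9.13 in Young arrays. The aged difference was -0.05 ± 0.12 (SE), and it was 0.01 without Young replicate 4. The Aged Impaired arrays differed from Young by 0.06 ± 0.13, or -0.04 without Aged Impaired replicate 2, and the Aged Unimpaired arrays by -0.20 ± 0.15, or -0.11 without Aged Unimpaired replicate 5.

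Fn1, read by 1370234_at, was the member with a higher mean in aged rats. It ran from 7.29 through 7.64 to 8.31 in Aged Impaired arrays, from 7.64 through 7.83 to 8.42 in Aged Unimpaired arrays and from 6.94 through 7.35 to 7.74 in Young arrays. Of the aged arrays, 12 of 14 were above the Young median, and 6 were above every Young array. The aged difference was 0.39 ± 0.11 (SE), or 1.31-fold higher. It was 0.27 ± 0.13 for Aged Impaired arrays, or 0.18 without Aged Impaired replicate 7, and 0.55 ± 0.14 for Aged Unimpaired arrays.

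Whether the members differed with learning among the aged rats was tested between the aged groups. The members were chosen with earlier results of these data known, and the values that stood behind the choice were those of aged against Young rats as far as is known. None of the 8 was called in limma, nor was any of the 9076 genes (0.0%), while 629 genes and 0 members had an unadjusted p under 0.05. The smallest member p was that of Fn1, which was lower in Aged Impaired arrays by -0.28 ± 0.14 (SE; adjusted p = 0.726 in limma). Mgp was higher by 0.26 ± 0.15 (adjusted p = 0.757 in limma), with 7 of 8 Aged Impaired arrays above the Aged Unimpaired median. Dcn differed by 0.29 ± 0.19, Fbln2 by -0.27 ± 0.19 and Lum by 0.15 ± 0.31, with limma adjusted p between 0.808 and 0.953. Single arrays moved these differences: Dcn was at 0.16 without Aged Unimpaired replicate 2, Fbln2 at -0.14 without Aged Impaired replicate 8 and Lum at -0.0023 without Aged Unimpaired replicate 3. Mgp was at 0.17 without Aged Unimpaired replicate 5, and Fn1 at -0.18 without Aged Unimpaired replicate 3. Nid1, Col4a1 and Col4a5 differed by -0.04 ± 0.13, -0.01 ± 0.11 and 0.03 ± 0.20, with adjusted p of 0.978, 0.99 and 0.99 in limma. The second Col4a1 probe set was higher in Aged Impaired arrays by 0.44 ± 0.15, and 7 of 8 of them were above every Aged Unimpaired array. Its unadjusted p of 0.00947 became 0.888 in limma when adjusted over 20832 probe sets.

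**Figure D3:**
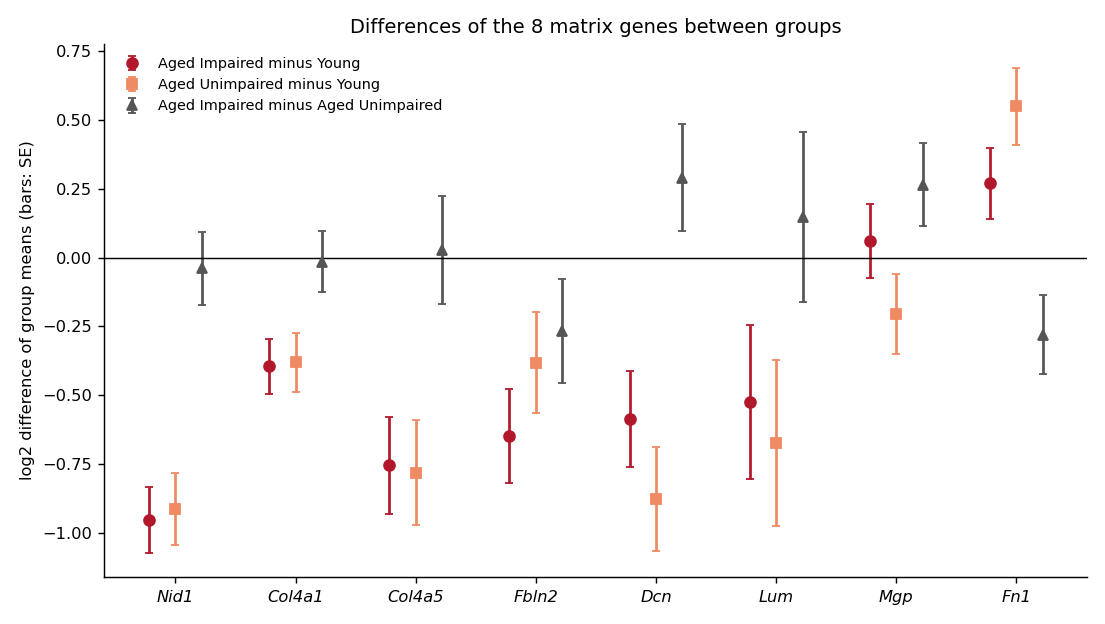
Log2 differences of group means of each gene, with SE bars, for Aged Impaired minus Young, Aged Unimpaired minus Young and Aged Impaired minus Aged Unimpaired. Differences from Young run from -0.95 (Nid1, Aged Impaired) to 0.55 (Fn1, Aged Unimpaired), and differences between the aged groups lie between -0.28 and 0.29.

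Nid1 varied together with Col4a1 on its brighter probe set, with Col4a5 and with Mgp from array to array within the groups. The second Col4a1 probe set and Col4a2 were not tested against Nid1. Group means were subtracted from each member, and the deviations were correlated over 23 arrays for all 28 pairs, with permutation within groups. Of the pairs 22 had an r above 0, 3 passed adjustment by Pearson's r and 4 by Spearman's rho. The share of all gene pairs with such values was not counted, so these counts are not read as particular to the members. Genes outside the matrix lists reached a larger r with Nid1, among them Tspan9 (r = 0.716, with no test). Nid1 and Col4a1 gave r = 0.64 and rho = 0.624 (permutation p = 0.00157 and 0.00353, adjusted p = 0.0153 and 0.0296). Nid1 and Mgp gave r = 0.589 and rho = 0.61 (permutation p = 0.00111 and 0.00212, adjusted p = 0.0153 and 0.0296). Nid1 and Col4a5 gave r = 0.469 and rho = 0.545 (permutation p = 0.00164 and 0.00278, adjusted p = 0.0153 and 0.0296). Without the 2 arrays farthest from the Nid1 median, Young replicates 4 and 5, the r values were 0.623, 0.61 and 0.475. All 3 pairs had an r above 0 in each group, between 0.427 and 0.964.

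Col4a1 and Col4a5 gave r = 0.46 (permutation p = 0.029, adjusted p = 0.203) and rho = 0.563 (permutation p = 0.00423, adjusted p = 0.0296), and so passed by rank alone. The pairs of Nid1 with the proteoglycan genes did not pass adjustment, and whether their r differed from those above was not tested. Dcn and Nid1 gave r = 0.384 over all arrays (rho = 0.292, adjusted permutation p = 0.375 and 0.485), and 0.05 without Young replicates 4 and 5. By group it was 0.213 in Aged Impaired, -0.583 in Aged Unimpaired and 0.77 in Young arrays. Lum and Nid1 gave r = 0.332 (rho = 0.301, adjusted permutation p = 0.56 and 0.485), and -0.135 without the same 2 arrays. Dcn and Lum gave r = 0.268 (rho = 0.0287, adjusted permutation p = 0.56 and 0.929).

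**Figure D4:**
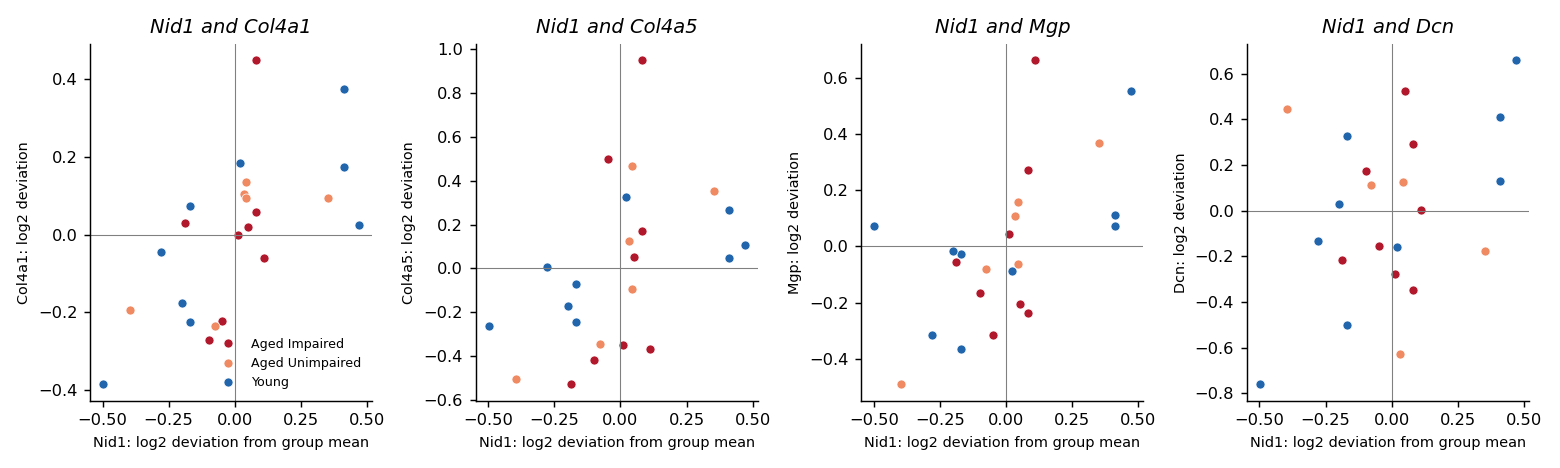
Deviation of each array from its group mean (log2 units) for Nid1 on the horizontal axis and Col4a1, Col4a5, Mgp or Dcn on the vertical axis, coloured by group. The first 3 panels have r between 0.469 and 0.64 over 23 arrays, and the Dcn panel has r = 0.384.

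The deviations were also set against those of cell type markers, a comparison added to the planned ones. Col4a5 followed the mean of 7 pericyte and smooth muscle markers with r = 0.715 and rho = 0.67 (adjusted permutation p = 0.0142 and 0.0116, r = 0.663 without the 2 farthest arrays). It was the 1 relation of 24 that passed by Pearson's r, over 8 members and 3 measures: the mean of 16 endothelial markers, the mural mean and the meningeal marker Igf2. By Spearman's rho 3 of the 24 passed, this one and those of Col4a1 with the mural mean (r = 0.426, rho = 0.602, adjusted permutation p = 0.13 and 0.0308) and with the endothelial mean. Col4a1 and the endothelial mean gave r = 0.622 and rho = 0.718 (adjusted permutation p = 0.0539 and 0.00984). Nid1 gave r = 0.538 and Col4a5 r = 0.533 with the endothelial mean (rho = 0.532 and 0.429, adjusted permutation p = 0.0701 for both r, and 0.096 and 0.143 for the rho). By group the r of Nid1 was 0.0395 in Aged Impaired, 0.227 in Aged Unimpaired and 0.84 in Young arrays, and that of Col4a5 0.591, 0.187 and 0.822. Without the 2 farthest arrays the r was 0.38 for Nid1 and 0.512 for Col4a5. The number that passed depended on the size of the family. The first calculation covered 16 relations without Igf2, of which 4 passed by Pearson's r, and Igf2 was added after its values had been seen. The 3 relations of Nid1, Col4a1 and Col4a5 with the endothelial mean passed by Pearson's r only in the smaller family.

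The genes whose within-group pattern was most like each member were named over 23 arrays and 9068 other genes, with no test. For Nid1 they were Tspan9 (r = 0.716), Nherf2, Usp37 and Mpzl1. For Col4a1 they were Pnp (r = 0.809), Mzf1, Eef1g and Parvb, and for Col4a5 Snhg11 (r = 0.753), Zfp280c, Scrib and Dtx1. For Fbln2 they were Mxd1 (r = 0.718), Aox1, Hars2 and Bgn, the biglycan gene, which was the 1 matrix gene among all 32 named. For Dcn they were Trappc8 (r = 0.74), Galnt11, Hspd1 and Gabbr1. For Lum they were Fat4 (r = 0.822), Slit2, Parp11 and Mycl, and without the 2 farthest arrays the r with Fat4 was 0.655. For Mgp they were Gsta4 (r = 0.667), Slc30a10, Alkbh1 and Erc1, and for Fn1 Ndrg2 (r = 0.678), Mpdu1, Vasp and Arhgdib.

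Some markers of vessel and meningeal cells also differed between aged and Young arrays. Of 16 endothelial markers tested, 11 had a difference below 0 and 5 above 0, with a median of -0.07. By the test 4 fell in aged arrays, beside 0.628% of all genes called lower: Slco1c1, a thyroid hormone transporter, by -0.41 ± 0.08 (SE; adjusted p = 0.00503 in limma), and Sox17, Sox18 and Ramp2. None rose by the test, and the von Willebrand factor gene Vwf was at 0.26 ± 0.09 (adjusted p = 0.104 in limma). In each aged group taken alone against Young, 1 of the 16 was called, Slco1c1 in Aged Impaired and Sox17 in Aged Unimpaired arrays. Of all genes 3.8% and 0.76% were called in these comparisons. All 7 pericyte and smooth muscle markers had a difference below 0 in aged arrays, with a median of -0.05. By the test 1 of them fell, the smooth muscle myosin gene Myh11, by -0.33 ± 0.09 (adjusted p = 0.0364 in limma). The summed linear signal of the endothelial list ran from 5296 to 7264 in Aged Impaired, from 5360 to 5912 in Aged Unimpaired and from 5494 to 7463 in Young arrays. Its medians were 5883, 5787 and 6592, in the same order. The summed signal of the mural list ran from 664 to 1043, from 599 to 815 and from 754 to 1004, with medians of 759, 715 and 859. Of 10 microglia and macrophage markers 6 rose in aged arrays, beside 280 of all 9076 genes called higher. The summed signal of this list ran from 9637 to 12046 in Aged Impaired, from 9286 to 11611 in Aged Unimpaired and from 7284 to 9202 in Young arrays. None of 2 choroid plexus, 2 dentate granule cell and 6 CA1 pyramidal markers was called in aged against Young arrays, and 1 of 4 CA3 markers, Spock1, rose. Between the aged groups none of these markers was called in limma. The Aged Impaired arrays had lower means than the Aged Unimpaired ones for all 6 CA1 pyramidal markers, with a median difference of -0.21 and 4 at an unadjusted p under 0.05. The 2 dentate markers went opposite ways between the aged groups. Prox1 was at 0.67 ± 0.25 and C1ql3 at -0.145 ± 0.134 (adjusted p = 0.632 and 0.863 in limma). The part of these markers in the members' differences was not tested. The difference between 3 prime and 5 prime GAPDH control probe sets, a measure of RNA quality, ran from 0.29 to 0.376 in Aged Impaired, from 0.298 to 0.373 in Aged Unimpaired and from 0.26 to 0.361 in Young arrays, with overlap. For the beta-actin control it was larger, from 2.13 to 2.33, from 2.13 to 2.32 and from 2.12 to 2.34, in the same order.

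Of 14 meningeal fibroblast markers on the array, 12 were never over the limit on any array, the collagen genes Col1a1, Col1a2 and Col3a1 among them. The mean of the 12 per array ran from 2.64 to 2.73 in aged and from 2.70 to 2.79 in Young arrays. Col1a1 reached 3.37, Col1a2 3.43 and Col3a1 3.84 in Young arrays, against highest aged values of 2.77, 2.76 and 2.95. These maxima came from few arrays. The Col3a1 value was that of Young replicate 1, and the other Young arrays lay between 2.89 and 3.07. Col1a2 was at 3.43 and 3.37 in Young replicates 4 and 7, and between 2.74 and 2.85 in the others. Col1a1 ran from 2.75 to 3.37 over the Young arrays. Without the filter for dim signal, Col1a1 was called lower in aged against Young rats. The other 2 of the 14 markers moved in opposite directions in aged arrays. Igf2, an insulin-like growth factor gene, fell by -0.84 ± 0.16 (SE; adjusted p = 0.00249 in limma), and Ptgds, a prostaglandin synthase gene also expressed by oligodendrocytes and choroid plexus, rose by 0.56 ± 0.10 (adjusted p = 0.000929 in limma). The summed signal of the list, mostly Ptgds, ran from 3431 to 8353 in Aged Impaired, from 3592 to 4629 in Aged Unimpaired and from 3050 to 3339 in Young arrays. Young replicate 4, the highest Young array for Nid1, Dcn, Lum and Mgp, was also the highest for Igf2 at 8.40. Young replicate 5, the lowest for Nid1, Col4a1, Col4a5, Dcn and Lum, was the lowest for Igf2 at 6.71. No relation of a member with Igf2 passed adjustment, and the largest was that of Lum (r = 0.617, rho = 0.456, adjusted permutation p = 0.0701 and 0.149).

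Matrix genes outside the 8 were tested in the same fit. Of 206 listed genes outside the 8, 181 were on the array, 95 of those were dim and 86 were tested. In aged against Young rats 6 of the 86 were called (6.98%, beside 3.71% of all genes), 5 higher and 1 lower, and their median difference was -0.00369 against 0.0112 for all genes. In Aged Impaired against Young rats 4 were called (4.65%, beside 3.8%), all higher, in Aged Unimpaired against Young rats 1 (1.16%, beside 0.76%), and between the aged groups 0, with 4 at an unadjusted p under 0.05 in limma. Centring each array on its median moved the split of called matrix genes from 5 higher and 1 lower to 3 higher and 4 lower. The same step moved the share of higher calls among all genes to 63.9%, against 83.1% as deposited.

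Of 8 other basement membrane genes tested, none was called in any of the 4 comparisons with limma, 1 had an unadjusted p under 0.05 in aged against Young rats, and 18 more on the array were dim. Smoc1, a calcium-binding protein of basement membranes, differed by 0.25 ± 0.09 (SE; adjusted p = 0.148 in limma). Agrn, the agrin gene, and Lamb2, a laminin chain gene, differed by -0.14 ± 0.07 and -0.10 ± 0.06 (adjusted p = 0.363 and 0.499 in limma). Of 3 small leucine-rich proteoglycan genes besides Dcn and Lum, none was called, and Aspn, the asporin gene, differed by -0.16 ± 0.05 (adjusted p = 0.0715 in limma). Biglycan, Bgn, differed by -0.08 ± 0.07 (adjusted p = 0.663 in limma).

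Of 7 interstitial collagen genes 1 rose, Col16a1, which encodes a fibril-associated collagen: it averaged 7.45 ± 0.23 in aged and 7.03 ± 0.28 in Young arrays (SD, n = 14 and 9), a difference of 0.42 ± 0.10 (SE; adjusted p = 0.0143 in limma). Of 12 other matrix glycoprotein genes 1 rose, Efemp1, the fibulin-3 gene, by 0.35 ± 0.08 (adjusted p = 0.0186 in limma). The tenascin gene Tnc differed by -0.42 ± 0.16 and the vitronectin gene Vtn by -0.26 ± 0.08 (adjusted p = 0.159 and 0.0888 in limma). Of 13 proteoglycan and link protein genes of the brain matrix 1 rose, Hapln2, a link protein gene of the nodes of Ranvier, by 0.63 ± 0.09 (adjusted p = 0.000244 in limma). It was the matrix gene called in both aged groups, by 0.66 ± 0.11 in Aged Impaired and 0.59 ± 0.12 in Aged Unimpaired arrays (adjusted p = 0.000763 and 0.0116 in limma). The Hapln2 call in Aged Unimpaired arrays was lost with a block by replicate number, and its limma adjusted p reached 0.0483 without 1 array. With the same block the aged calls of Col16a1 and Efemp1 were lost. Hapln1, a link protein of perineuronal nets, differed by -0.31 ± 0.09 (adjusted p = 0.0698 in limma).

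Of 13 protease and inhibitor genes 3 were called. Timp2, an inhibitor of metalloproteinases, rose by 0.20 ± 0.05 (SE; adjusted p = 0.0141 in limma), a call that was lost when arrays were centred on their medians and when the probe sets of the gene were averaged. Plat, the tissue plasminogen activator gene, rose by 0.24 ± 0.07, and Mmp14, a membrane-bound collagenase gene, fell by 0.36 ± 0.10 (adjusted p = 0.0495 and 0.0497 in limma). Of 23 fits that left out 1 array, Plat lost its call in 16 and Mmp14 in 17. Of 11 matrix receptor genes none was called in aged against Young rats, and Ddr1, a collagen receptor kinase gene, rose in Aged Impaired against Young arrays by 0.35 ± 0.09 (adjusted p = 0.0257 in limma). That call was lost in 5 of the 23 fits without 1 array (adjusted p up to 0.0573), with array weights and with the replicate block. Its difference in Aged Unimpaired arrays was 0.13 ± 0.10 (adjusted p = 0.743), and the aged groups differed by 0.22 ± 0.10 (adjusted p = 0.681 in limma). None of 11 collagen processing genes and none of 8 genes of the TGF-beta pathway was called. Serpinh1, the collagen chaperone gene, differed by -0.35 ± 0.12 (adjusted p = 0.117 in limma), and Smad3 by 0.17 ± 0.07 (adjusted p = 0.264 in limma).

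**Figure D5:**
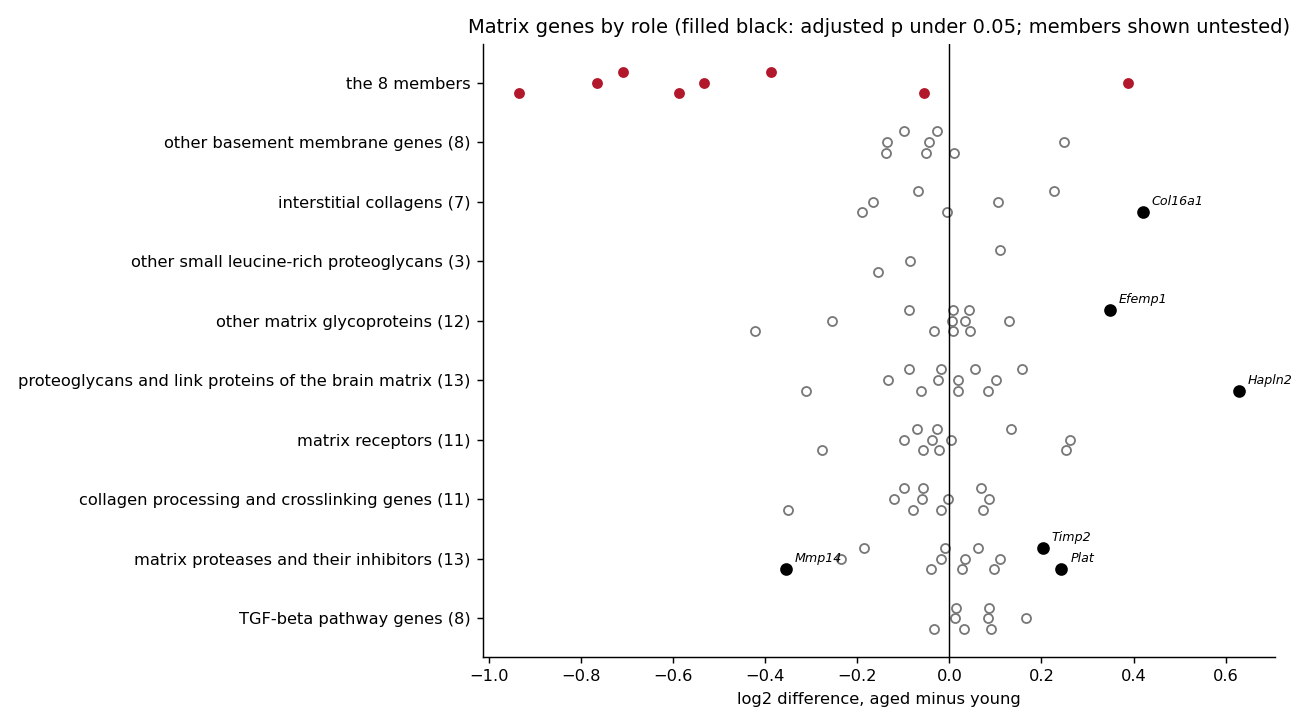
Log2 difference, aged minus Young, of each tested gene by role (horizontal axis), with the 8 members in red and untested. Filled black points are the 6 called genes, and the rest of the 86 genes are open circles.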

How the data were processed

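The authors deposited log2 signals from GCRMA, a method of background correction, normalization and probe summary, per the submitters' processing notes. Its version and settings are not given in the sources used here. There were 31099 probe sets and 24 columns of samples. The column of 1 sample, an Aged Unimpaired array omitted after quality control, was blank. Values were used as deposited. Of the probe sets, 20832 had 1 gene symbol, 436 several and 9831 none. A gene was read by its brightest probe set among those above 4 (log2) on 6 or more arrays, giving 9076 genes. The 3 group means were modelled in limma 3.58.1 under R 4.3.3, and p-values were Benjamini-Hochberg adjusted over all genes and called under 0.05. The aged mean weights the aged groups by their arrays. Correlations used permutation within groups. The fit was also run on simulated data with planted differences, drawn as independent normal values for each gene with no array effects. Measured arrays need not follow that setting, so nothing is read from it for the genes described. Python 3.11.15 with matplotlib 3.10.9 made the figures.

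The members and lists were chosen with earlier results of these data known. The rule for naming took all members with every probe set, up to 4 genes of smallest p per list in aged against Young, and the 4 genes most like each member. Young replicate 9 stands among the Aged Unimpaired columns, which skip a replicate 6, and was kept as labelled. The alternatives were the filter, the mean of a gene's probe sets, array centring, quantile normalization, a variance trend, array weights, a block by replicate number and leaving out each array. The number of arrays limits the precision.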

Additional observations from a re-analysis of the deposited data

Results flagged for a closer look

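Of 27 combinations of a probe set and a group that were examined for a sample far from the others, 3 were marked, and chance marks about 1 in 20. All were in Aged Impaired arrays. Col4a1 on its brighter probe set was 7.56 in replicate 6, while the other Aged Impaired arrays lay between 6.84 and 7.17. Fbln2 was 5.11 in replicate 8, while the others lay between 5.82 and 6.27. Lum was 5.52 in replicate 1, while the others lay between 4.77 and 4.95. Each was a different gene in a different animal. Replicate 6 was also the highest Aged Impaired array for the second Col4a1 probe set (6.63) and for Col4a2 (8.68). Its choroid plexus marker Ttr was 9.5, while the other Aged Impaired arrays lay between 6.3 and 6.83. Enpp2, the other choroid marker tested, was 10.53 there, within the range of the others. Replicate 8 was also the lowest Aged Impaired array for Col4a1 and Lum. A relation of these values to the marks was not tested.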

How the results depend on the processing

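The members' differences from Young kept their sign under the filters, scalings, array weights and replicate block, and in every fit without 1 array, except those of Mgp, near 0. On the second probe set the sign turned for Nid1 in Aged Unimpaired (0.00153, dim) and for Col4a1 in Aged Impaired arrays (0.0124). No member was called between the aged groups under any alternative run. Other matrix genes called in aged against Young rats numbered 11 with quantile normalization (4 higher, 7 lower) and 3 with the replicate block, against 6, and ran from 4 to 7 without 1 array. In Aged Impaired against Young rats they numbered 7 with quantile normalization, against 4, and ran from 3 to 7 without 1 array, with 7 without Aged Impaired replicate 8 or Young replicate 5. In Aged Unimpaired against Young rats they numbered 2 with the mean of probe sets, 4 with array weights and 0 with the replicate block, against 1. They ran from 1 to 2 without 1 array, with 2 without Aged Impaired replicate 2, Aged Unimpaired replicate 1 or 7, or Young replicate 8. Beside the smaller counts with the block, calls over all genes fell to 159, 165 and 31, against 337, 345 and 69; array weights gave 149 in the last. Same-numbered arrays share only a number: 1 of 20 pairs had a correlation of deviations over 0.1 (median -0.05). Of the relations with markers, 4 of 16 passed without Igf2, against 1 of 24. The cause of these shifts was not tested. Dim signal limits 95 of 181 other matrix genes.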
